A study of Mus musculus with 8 samples.

Results

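Transcripts of 10 enzymes that carry glucose to lactate were followed in monocytes from injured mouse livers. The genes are Hk2, Gpi1, Pfkl, Aldoa, Tpi1, Pgk1, Pgam1, Eno1, Pkm and Ldha, taken by gene symbol from a table of 15336 genes, and all 10 had a row and passed the filter on low counts. They cover every enzymatic step of the route except the one run by Gapdh, which is described among the other genes of glycolysis. Messenger RNA was measured in Ly6Chi cells, the inflammatory class of monocyte that moves into damaged tissue, which were sorted from liver in 8 male C57BL/6 mice at 8 weeks of age. Each mouse had been fasted for 12 h and had received 300 mg/kg acetaminophen 24 h before the sort. The 4 control mice were Commd10fl/fl (replicates 2, 3, 10 and 11) and carried floxed Commd10 alleles without a Cre. The 4 deficient mice were LysMDCommd10 (replicates 5, 6, 12 and 13), in which a Cre expressed from the lysozyme M gene Lyz2 acts on the floxed alleles. That Cre is known to act in neutrophils and tissue macrophages as well as in monocytes, and no group carried it together with intact Commd10, so the loss of COMMD10 cannot be told apart from the Cre or from its insertion in Lyz2. No group without acetaminophen was analysed here.

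Glycolysis splits 1 glucose into 2 pyruvate in the cytosol, with a small yield of ATP, and lactate dehydrogenase turns pyruvate into lactate and restores the NAD that the route consumes. Monocytes and macrophages rely on it when they are activated by microbial or damage signals and where oxygen is short. Hypoxia-inducible factor 1 is known to drive most genes of the route by binding near them.

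The animal names are written in 2 styles in the sample descriptions, which part the lower numbers (controls 2 and 3 with deficient replicates 5 and 6) from the higher numbers (controls 10 and 11 with deficient replicates 12 and 13). The labels do not say what the sets are, and with 2 animals of each genotype in each set they are called label sets here. Total counts ran from 13327665 to 15759224 per animal. Commd10 stood at 24.5 to 29.7 library-scaled counts (CPM) in controls against 8.73 to 17 CPM with the Cre, and the cre transgene had 37 to 122 counts in the deficient animals and 0 in controls, where a count of 0 allows at most 0.225 CPM. The monocyte markers Ly6c2, at 212 to 355 CPM, and Ccr2, at 1050.4 to 1723 CPM, were present in every animal. Levels are TMM-scaled CPM, and fold changes are log2 ratios, deficient to control, from a model that holds the label set constant, with the standard error (SE) of that fit. Calls require an adjusted p below 0.05 (edgeR quasi-likelihood test, Benjamini-Hochberg over 12178 genes). The labels number each library separately, and each was taken as 1 animal; if they share a source, p-values measure technical spread only.

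The bases before the start sites of 3 members, chosen with the calls known, are shown as examples. Ldha has the window with the most matches to the hypoxia-factor core when both strands are counted. The Hk2 window holds matches and the Gpi1 window holds none. Binding was not tested, nor was any relation of the matches to the calls. The letters searched were ACGTG and GCGTG on both strands, and capitals mark every match, so that a CACGTG counts once for each strand. RefSeq, on GRCm38.p6, gave the 250 bases before each start in the direction of the gene. All 10 members had an entry, some with several starts.
Ldha, chr7:46845554-46845803, plus strand: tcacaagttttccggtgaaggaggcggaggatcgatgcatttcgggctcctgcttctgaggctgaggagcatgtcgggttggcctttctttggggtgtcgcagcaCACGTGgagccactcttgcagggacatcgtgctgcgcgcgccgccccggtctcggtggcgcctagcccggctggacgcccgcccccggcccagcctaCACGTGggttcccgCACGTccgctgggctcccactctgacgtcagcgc
Hk2, chr6:82774455-82774704, minus strand: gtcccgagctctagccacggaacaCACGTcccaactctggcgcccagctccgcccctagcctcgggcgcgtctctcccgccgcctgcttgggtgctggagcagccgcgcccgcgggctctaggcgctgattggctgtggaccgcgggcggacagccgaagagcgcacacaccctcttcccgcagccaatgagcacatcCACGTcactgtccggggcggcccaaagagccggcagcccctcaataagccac
Gpi1, chr7:34230337-34230586, minus strand: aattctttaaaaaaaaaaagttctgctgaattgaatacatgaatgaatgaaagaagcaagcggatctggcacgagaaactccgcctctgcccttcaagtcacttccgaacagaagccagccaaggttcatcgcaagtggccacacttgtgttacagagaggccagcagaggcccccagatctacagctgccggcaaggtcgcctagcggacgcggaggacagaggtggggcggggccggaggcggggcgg
The Ldha window held 3 separate stretches, of which 2 read CACGTG, and the Pgam1 window also held 3 stretches. CACGTG was found for 1 of the 10 members, Ldha, and for 9.83% of the genes of the table that have such windows. In the Hk2 window there were 2 stretches, and the Gpi1 window held none. ACGTG was found before at least 1 start of 6 members (Hk2, Aldoa, Pgk1, Pgam1, Pkm and Ldha), and before 24.6% of the 10398 genes of the table that have such windows. GCGTG was found for 4 members (Pfkl, Pgam1, Eno1 and a second start of Ldha) against 48.4% of those genes, and either for 8 of 10 against 59.6%. A gene with several starts, such as Aldoa, Eno1, Pkm or Ldha, had more windows in which a match could fall. Counted by window over those genes, the shares were 21.1% (ACGTG), 42.9% (GCGTG) and 53.9% (either). Neither core lay in the windows of Gpi1 and Tpi1, which says only that these letters are not in that stretch. Some windows lie partly or wholly in annotated exons of the same gene. The overlap was 138 of the 250 bases for Tpi1, 140 for the Pkm window with the match and up to 250 for Eno1.

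Deficient monocytes carried more message of 9 of the 10 enzymes once the label set was held constant, by 1.43-fold (Gpi1) to 1.93-fold (Tpi1), and 0 were lower. Hk2, the remaining one, was at 1.16-fold and did not pass. Across all genes tested 6.59% were called higher and 7.35% lower, and the median log2 fold change was 0.64 over the 10 enzymes and 0.00 over all genes. The summed level of the 10 went from 4702 ± 651 CPM (control) to 7409 ± 2163 CPM (deficient; SD, n = 4 each), or 0.408% to 0.537% and 0.567% to 0.914% of an animal's counts. Without the label set in the model 0 of the 10 were called by edgeR, DESeq2 or limma voom, while 9 had an unadjusted p under 0.05 in edgeR, as had 5.75% of all genes in that direction and 12.5% in either, of which 0% were called. The levels of all 4 deficient animals lay above all 4 controls for 6 enzymes, against 3.62% of all genes, and above the controls of the same label set for 9 enzymes, against 13.7%.

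**Figure D1:**
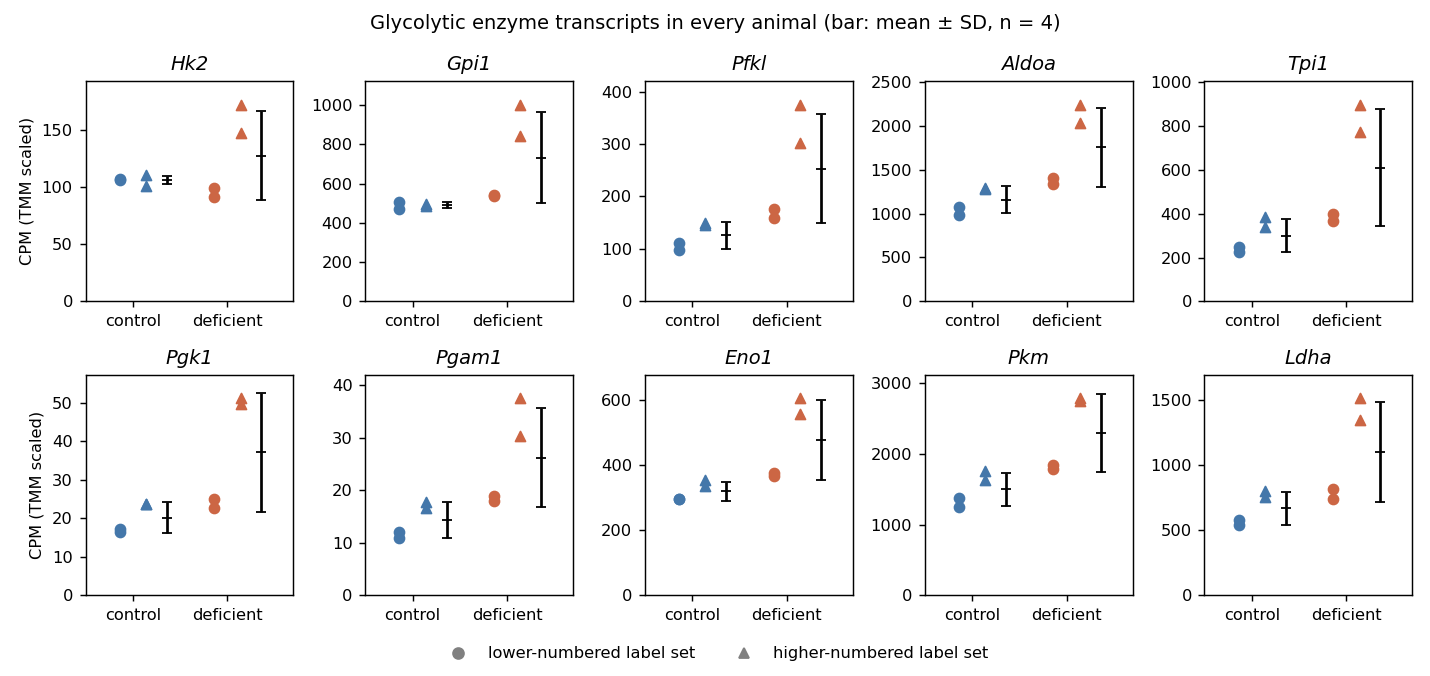
Level of each enzyme transcript in every animal, in TMM-scaled CPM on a linear axis that starts at 0, for control (blue) and deficient (orange) mice, with circles for the lower-numbered and triangles for the higher-numbered label set and black bars for the mean and SD of 4 animals. In each panel the 2 deficient animals of the higher-numbered set (replicates 12 and 13) are the highest, as for Tpi1 at 898 and 774 CPM.

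The preparatory steps spend ATP to trap glucose and ready it for cleavage. Hk2 (ENSMUSG00000000628, GRCm38 chromosome 6, 82725025 to 82774454, minus strand) encodes hexokinase 2, the inducible enzyme that phosphorylates glucose on entry. It stood at 106, 107, 101 and 110.3 CPM (controls 2, 3, 10, 11) and at 98.7, 90.9, 172 and 147 CPM (deficient 5, 6, 12, 13). The 4 controls were nearly level, deficient replicates 5 and 6 were the lowest animals of all, and 12 and 13 the highest, so the groups overlapped. Its log2 fold change was 0.21 (SE 0.14, adjusted p = 0.333, edgeR quasi-likelihood). That value was 0.09 without deficient replicate 12, 0.10 without control 10 and 0.32 without deficient replicate 6, and it was called in none of the 8 omissions.

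Gpi1 (ENSMUSG00000036427, chromosome 7, 34201330 to 34230336, minus strand) encodes the isomerase that turns glucose 6-phosphate into fructose 6-phosphate. Its levels were 472, 508, 498 and 487 CPM (controls 2, 3, 10, 11) and 541, 535, 1002 and 844 CPM (deficient 5, 6, 12, 13). The groups did not overlap, yet in the lower-numbered set they came close. Gpi1 rose by 0.52 (log2, SE 0.14, adjusted p = 0.0411, edgeR quasi-likelihood), the weakest call among the enzymes. That call was lost when control 2, 10 or 11 or deficient replicate 12 or 13 was left out, with a fold change from 0.40 to 0.61 over the 8 omissions and an adjusted p of up to 0.129.

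Pfkl (ENSMUSG00000020277, chromosome 10, 77986947 to 78010083, minus strand) encodes the liver-type subunit of phosphofructokinase, the committing step of the route. Controls 2, 3, 10 and 11 had 96.9, 112, 149 and 146 CPM, and deficient replicates 5, 6, 12 and 13 had 176, 158, 375 and 302 CPM. Every deficient animal was above every control, and Pfkl rose by 0.94 (log2, SE 0.12, adjusted p = 0.00273, edgeR quasi-likelihood).

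Aldolase cleaves the doubly phosphorylated sugar into a pair of triose phosphates. Aldoa (ENSMUSG00000030695, chromosome 7, 126795234 to 126800751, minus strand) encodes the aldolase of muscle and most other cells. It stood at 986, 1075, 1296 and 1281 CPM (controls 2, 3, 10, 11) and at 1406, 1340.2, 2243 and 2029 CPM (deficient 5, 6, 12, 13), with no overlap. The log2 fold change was 0.57 (SE 0.08, adjusted p = 0.00486, edgeR quasi-likelihood). Tpi1 (ENSMUSG00000023456, chromosome 6, 124810586 to 124814296, minus strand) encodes the isomerase that interconverts the trioses. It stood at 226, 249, 384 and 341 CPM (controls 2, 3, 10, 11) and at 399, 366, 898 and 774 CPM (deficient 5, 6, 12, 13). Deficient replicate 6 lay just under control 10, so the groups overlapped, while within each label set they did not. Tpi1 had the largest fold change of the 10 in this fit, at 0.95 (log2, SE 0.11, adjusted p = 0.00206, edgeR quasi-likelihood).

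The later steps return ATP and make pyruvate. Pgk1 (ENSMUSG00000062070, chromosome X, 106187100 to 106203699, plus strand), the phosphoglycerate kinase gene of the first ATP-yielding step, had 16.3, 17.1, 23.6 and 23.6 CPM (controls 2, 3, 10, 11) and 25, 22.7, 51.2 and 49.8 CPM (deficient 5, 6, 12, 13). Pgam1 (ENSMUSG00000011752, chromosome 19, 41911923 to 41918660, plus strand), the mutase gene of the next step, had 10.8, 12.0, 17.7 and 16.6 CPM in the same controls and 17.9, 18.9, 37.5 and 30.4 CPM in the same deficient animals. Groups overlapped for Pgk1 through deficient replicate 6 alone and did not overlap for Pgam1. Both rose, by 0.82 (log2, SE 0.11) and 0.84 (log2, SE 0.10). Their levels may rest on part of each transcript or may include reads of other genes. Windows of 75 bases, the cycle count of the sequencing kit, were taken from annotated transcripts. Of these windows, 52.8% of those of Pgk1 and 34.9% of those of Pgam1 also occur in another gene, mostly in the copies Pgk1-rs7 and Pgam1-ps2. How the authors counted reads from such windows is not given in the sources used here.

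Eno1 (ENSMUSG00000063524, chromosome 4, 150236721 to 150248879, plus strand), which encodes enolase 1, stood at 295, 295, 354 and 335 CPM (controls 2, 3, 10, 11) and at 368, 376, 606 and 558 CPM (deficient 5, 6, 12, 13). For Pkm (ENSMUSG00000032294, chromosome 9, 59656368 to 59679375, plus strand), the pyruvate kinase gene whose product makes pyruvate and ATP, the levels were 1245, 1371, 1751 and 1624 CPM in those controls and 1793, 1836, 2786 and 2750.1 CPM in those deficient animals. Neither gene showed an overlap between the groups, and they rose by 0.55 (log2, SE 0.09) and 0.59 (log2, SE 0.08). Windows shared with other genes made up 23.0% for Eno1, nearly all with Eno1b, 17.8% for Pkm, whose splice forms M1 and M2 are not told apart by counts per gene, and 10.8% for Gpi1, while the remaining 5 enzymes had 0% to 2.69%.

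Ldha (ENSMUSG00000063229, chromosome 7, 46841475 to 46855627, plus strand) encodes the lactate dehydrogenase subunit that favours lactate. It stood at 538, 577, 798 and 755 CPM (controls 2, 3, 10, 11) and at 813, 741, 1513 and 1346 CPM (deficient 5, 6, 12, 13). Deficient replicate 6 was below controls 10 and 11, and within each label set both deficient animals were above both controls. Ldha rose by 0.68 (log2, SE 0.09, adjusted p = 0.00393, edgeR quasi-likelihood). The calls of the 8 enzymes other than Hk2 and Gpi1 were kept when any 1 of the 8 animals was left out, with the highest adjusted p at 0.0208, for Eno1.

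The genotype difference was larger in the higher-numbered set for every enzyme. With that set alone, 2 against 2 animals, all 10 were called, against 2.26% of all genes called higher, and log2 fold changes ran from 0.59 (Hk2, SE 0.11) to 1.20 (Tpi1, SE 0.11). With the lower-numbered set alone 0 were called by edgeR, against 0.254% of all genes called higher, and 8 had an unadjusted p under 0.05. There the fold changes ran from -0.17 (Hk2, SE 0.08) through 0.13 (Gpi1, SE 0.08) to 0.69 for Tpi1 (SE 0.09) and Pgam1 (SE 0.13). The test of the difference between the sets, an interaction term, called 0 of the 10, against 0.0411% of all genes (0.0246% with the larger difference in the higher-numbered set), while 8 had an unadjusted p under 0.05, against 6.71%. The interaction was largest for Gpi1, at 0.77 (log2, SE 0.14, adjusted p = 0.190, edgeR quasi-likelihood), and Hk2, at 0.76 (SE 0.14, adjusted p = 0.190), and smallest for Pkm, at 0.24 (SE 0.13, adjusted p = 0.798).

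**Figure D2:**
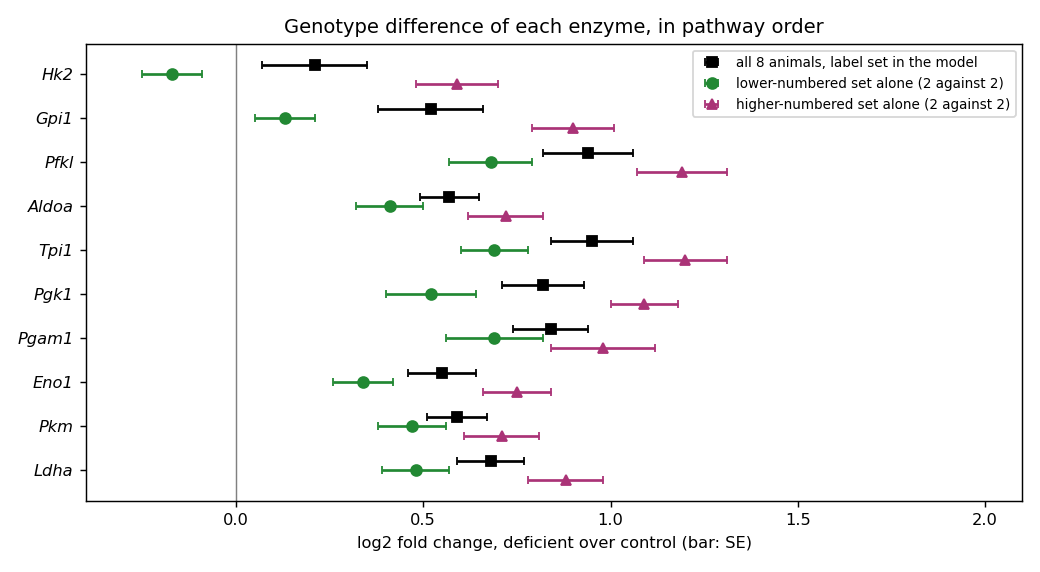
Log2 fold change of each enzyme, deficient over control, with its SE, for all 8 animals with the label set in the model (black squares) and for each label set alone (green circles and purple triangles), from hexokinase at the top to lactate dehydrogenase at the bottom. In the lower-numbered set Hk2 lies at -0.17 and Gpi1 at 0.13, and the other 8 lie at 0.34 to 0.69.

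The label sets also differed in themselves. In controls alone, Hk2 differed between the sets by -0.01 (log2, SE 0.10) and Gpi1 by 0.01 (SE 0.10), whereas the other 8 were at 0.22 (Eno1, SE 0.08) to 0.61 (Tpi1, SE 0.11). Of the 10, 7 were called higher in the controls of the higher-numbered set (edgeR quasi-likelihood), against 8.72% of all genes, with Eno1 at an adjusted p of 0.0868 and the first 2 enzymes not called. Among deficient animals all 10 were called higher in that set, against 11.4%, from 0.61 (Pkm, SE 0.09) to 1.13 (Tpi1, SE 0.11), with Hk2 at 0.75 (SE 0.10) and Gpi1 at 0.78 (SE 0.10) above Aldoa, Eno1 and Pkm. With both genotypes in the fit 8 were called, against 18.6%, from 0.44 (Eno1, SE 0.09) to 0.87 (Tpi1, SE 0.11), while Hk2 at 0.37 and Gpi1 at 0.39 (SE 0.14 each) were not. Differences between enzymes were not tested. Deficient animals of the lower-numbered set were close to controls of the higher-numbered set in Ldha (mean 777 CPM in both), Pgk1 (23.9 and 23.6 CPM) and Tpi1 (383 and 362 CPM). Animals of the same genotype and set differed by at most 0.31 (log2, Pfkl) for any enzyme.

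**Figure D3:**
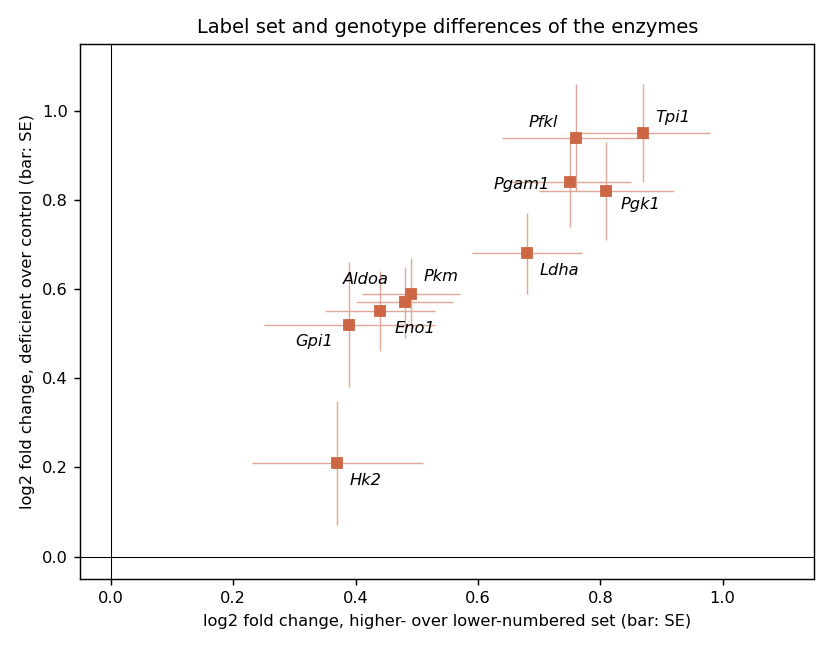
Log2 fold change between the label sets (horizontal) against log2 fold change between the genotypes (vertical) for the 10 enzymes, both from the fit on all 8 animals, with bars for the SE. Hk2 lies lowest on the genotype axis at 0.21 and Tpi1 highest at 0.95; both axes share deficient replicates 12 and 13.

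Per kilobase of exon, Aldoa had the highest level in controls, at 398 ± 52.7 CPM per kb, followed by Pkm at 299.5 ± 46.1 and Ldha at 202 ± 39.0 (SD, n = 4 each). Tpi1 followed at 109 ± 27.2 CPM per kb, Gpi1 at 76.2 ± 2.45 and Eno1 at 59.4 ± 5.51. Pfkl at 18.9 ± 3.84 and Hk2 at 17.8 ± 0.633 were the low preparatory enzymes, and Pgk1 at 8.97 ± 1.79 and Pgam1 at 7.21 ± 1.71, the genes with the most shared windows, came last. Among controls the ranges of neighbours overlapped for Aldoa and Pkm, for Pfkl and Hk2 and for Pgk1 and Pgam1. Within an animal the order held in 8 of 8 animals for each neighbouring pair but Pfkl above Hk2, which held in 6. With the length of the principal transcript in place of all exons the order of the means was the same. Among controls the ranges of Tpi1, Gpi1 and Eno1 then overlapped in neighbouring pairs, while those of Pfkl and Hk2 did not. The order within an animal then held in 6 of 8 animals for Tpi1 above Gpi1. It held in 7 for Gpi1 above Eno1 and for Hk2 above Pgk1, and in 8 for each other pair, Pfkl above Hk2 included.

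Several steps have isozymes, and the shares below are of summed CPM per kb of exon, as mean ± SD of 4 animals. These isozymes were chosen after their values were seen. Hk3, a hexokinase of myeloid cells, made up most of the hexokinase message, at 63.2% ± 3.73 in controls and 59.3% ± 1.52 in deficient animals, and its log2 fold change was 0.06 (SE 0.08). Hk2 held 24.8% ± 2.14 and 25.9% ± 2.12. Among phosphofructokinase subunits Pfkl held 64.5% ± 3.52 in controls (60.9% to 68.3%) and 73.2% ± 3.74 in deficient animals (69.4% to 76.7%), with no overlap, and 52.3% ± 3.26 and 61.5% ± 3.88 by principal transcript length. Aldoa held at least 99.1% of aldolase message in every animal. Ldha held 94.8% to 98.1% of lactate dehydrogenase message in controls and 97.1% to 99.5% in deficient animals, ranges that overlapped, and Ldhb, the subunit of heart and other oxidative tissues, made up the rest.

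The other genes of glycolysis did not move as one. Of 21 listed, 14 had a row and 13 were tested. Of the 13, 4 rose and 2 fell, against 6.59% and 7.35% of all genes tested. The median log2 fold change of the 13 was 0.01. Gapdh, the dehydrogenase gene of the step missing from the 10, rose from 142 ± 8.71 to 201 ± 43.1 CPM (SD, n = 4 each), by 0.47 (log2, SE 0.08, adjusted p = 0.00886, edgeR quasi-likelihood), and its call held without any 1 animal. Its transcripts share 22.6% of their windows with other genes, 121 in number. The hexokinase gene Hk1 rose by 0.46 (SE 0.11), a call lost without control 10 or 11 or deficient replicate 12 or 13 (adjusted p up to 0.0824), and the platelet-type phosphofructokinase gene Pfkp by 0.43 (SE 0.10), lost without control 2, 10 or 11 or deficient replicate 12 or 13 (up to 0.0795). Ldhb fell from 11.7 ± 3.36 to 7.14 ± 3.42 CPM (SD, n = 4 each), by 0.76 on the log2 scale (SE 0.18), lost without control 3 or 11 or deficient replicate 6, 12 or 13 (up to 0.0742). The remaining calls, named after their values were seen, were the neuronal enolase gene Eno2 (1.14, SE 0.30), whose call was kept only without control 10 or deficient replicate 13 (adjusted p up to 0.141 without another animal), and the muscle-type gene Pfkm (-0.57, SE 0.15), kept only without deficient replicate 6 (up to 0.102).

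**Figure D4:**
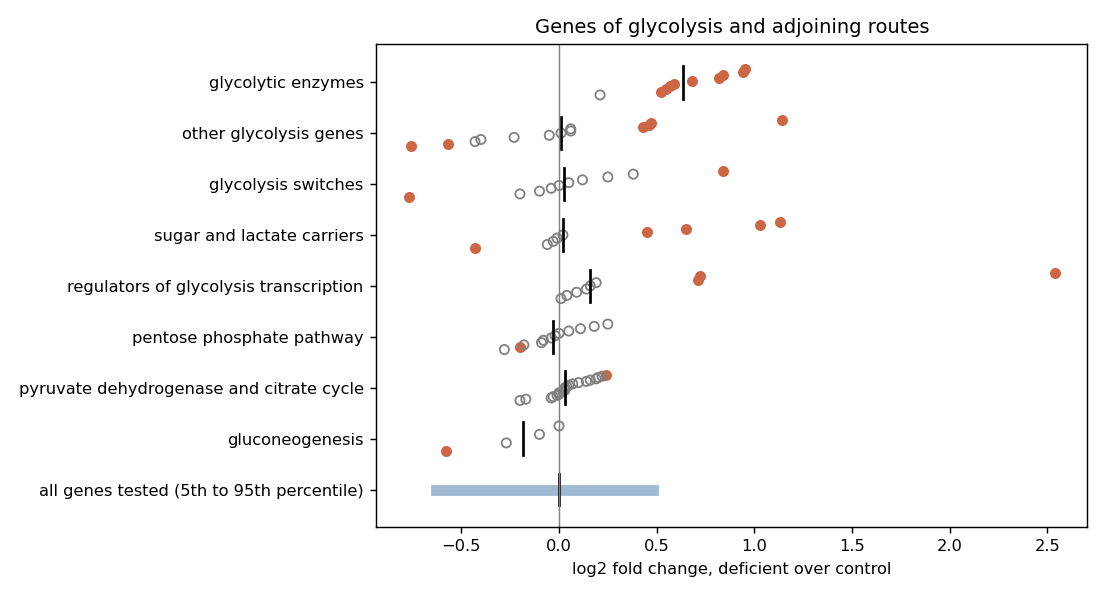
Log2 fold change, deficient over control, of each tested gene of glycolysis and adjoining routes (filled orange, called at an adjusted p under 0.05; open grey, not called), with a black line at each list's median and a blue bar from the 5th to the 95th percentile of all tested genes, -0.63 to 0.48. The 10 enzymes lie at 0.21 to 0.95, and the citrate cycle and pentose phosphate lists lie within -0.28 to 0.25.

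Carriers of sugar and lactate were split. Of 9 tested, 4 rose and 1 fell, with a median of 0.02, against 6.59% higher and 7.35% lower over all genes tested. The glucose transporter gene Slc2a1 rose from 111 ± 34.1 to 273 ± 172 CPM (1.13, SE 0.19) and the lactate exporter gene Slc16a3 from 217 ± 32 to 466 ± 183 CPM (1.03, SE 0.20; SD, n = 4 each). Slc16a1, a second lactate carrier gene, rose by 0.65 (SE 0.13) and Slc16a7 fell by 0.43 on the log2 scale (SE 0.09), and these 4 calls held without any 1 animal. Bsg, a chaperone gene of some lactate carriers, named after its value was seen, was at 0.45 (SE 0.10). Its call was lost without control 10 or 11 or deficient replicate 12 or 13 (adjusted p up to 0.0679, edgeR quasi-likelihood).

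Among 10 tested switches of glycolysis 1 rose and 1 fell, near the shares over all genes tested (6.59% higher, 7.35% lower). Pdk1, which encodes a kinase that turns off pyruvate dehydrogenase, rose from 32.6 ± 7.72 to 59.9 ± 20.8 CPM (0.84, SE 0.09; SD, n = 4 each). Its relative Pdk2 fell by 0.77 on the log2 scale (SE 0.19), a call lost without control 2 or 11 or deficient replicate 6 or 12 (adjusted p up to 0.0736, edgeR quasi-likelihood). Pfkfb3, whose product raises the activator of phosphofructokinase, was at 0.38 (SE 0.14, adjusted p = 0.0955), and Tigar, which encodes an opposing phosphatase, at 0.25 (SE 0.10, adjusted p = 0.12).

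For the pentose phosphate list and the pyruvate dehydrogenase and citrate cycle list, counts and medians were near those of all genes tested (6.59% higher, 7.35% lower, median 0.00). In the pentose phosphate list 0 of 12 rose and 1 fell, Pgls (-0.20, SE 0.05), a call kept only without deficient replicate 5 (adjusted p up to 0.0847 without another animal, edgeR quasi-likelihood), and H6pd, Pgd and Prps2 were at -0.18, 0.18 and -0.28. Of 21 pyruvate dehydrogenase and citrate cycle genes 1 rose and 0 fell: Dld, which encodes a subunit shared by the dehydrogenase complexes, was at 0.24 (SE 0.06) and kept its call only without control 10 or deficient replicate 5 (up to 0.0969), while Dlst, Idh3g and Mdh2 were at 0.16, -0.17 and 0.20. The medians of these lists were -0.03 and 0.03, and that of the gluconeogenesis list, with 4 tested genes, was -0.19. Of 4 tested gluconeogenesis genes Pck2 fell (-0.58, SE 0.13), a call lost without control 2 or deficient replicate 6 or 12 (adjusted p up to 0.0623, edgeR quasi-likelihood), and Pck1, Pcx and G6pc3 were at -0.27, -0.10 and 0.00.

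Of 9 genes that govern transcription of the route, 3 rose and 0 fell, against 6.59% and 7.35% of all genes tested. Hif1a, the oxygen-regulated subunit gene of hypoxia-inducible factor 1, rose from 243 ± 45.5 to 407 ± 113 CPM (0.72, SE 0.11; SD, n = 4 each). The oxygen-sensing hydroxylase gene Egln3 rose by 2.54 (SE 0.42) and Egln1 by 0.71 (SE 0.15), the latter not called without control 11 (adjusted p = 0.0588, edgeR quasi-likelihood). Vhl, which encodes the factor that marks the subunit for destruction, was at 0.16 (SE 0.08, adjusted p = 0.177).

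The protein-coding genes most like the enzymes over the 8 animals, by Pearson r with the mean standardised log2 CPM of the 10, were Ero1l (r = 0.996), an oxidoreductase gene of protein folding, Ikbkg (0.994), the regulatory subunit gene of the kinase that activates NF-kB, Slc2a1 (0.993) and Mthfd1l (0.993), a mitochondrial folate enzyme gene. Bnip3 (0.991), a mitophagy receptor gene, Prkar1a (0.990), a protein kinase A subunit gene, Piwil2 (0.988) and Ppme1 (0.988) followed. The animals form separate label sets, which such an r over 8 points takes in, and 164 of 10964 genes reached 0.95. Of the enzymes, Hk2 had the lowest r with the mean of the other 9, at 0.826, then Gpi1 at 0.958, and the other 8 were at 0.979 to 0.994.

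Some markers of other cells differed between the same animals. Over all genes tested 6.59% were called higher and 7.35% lower, and 3.62% had all 4 deficient animals above all 4 controls. A count of 1 in a list of 6 to 9 tested genes was not read as a result about those cells. Summed neutrophil markers, of which 13 of 15 had a row, were at 425 to 643 CPM (controls) and 695 to 946 CPM (deficient), without overlap, and 5 of 9 tested rose. These 5 were S100a8 (3.12 to 19.8 CPM in controls, 35.1 to 135 in deficient animals), S100a9 (0.542 to 7.46, then 5.66 to 36.1), Lcn2 (16.6 to 47.6, then 87.8 to 209), Mmp8 (74.7 to 149.6, then 169 to 241) and Prtn3 (4.20 to 7.18, then 9.58 to 15.5), all but S100a9 without overlap. Apart from Prtn3 they were highest in deficient replicates 12 and 13, as the enzymes were. Csf3r made up most of the control sum, at 321 to 404 CPM against 251 to 359 CPM, and was not called. The defining genes Ly6g and Camp had no row in the table used here, Mpo stood at 0.0750 to 0.431 CPM and Ltf at 0.0656 to 1.25 CPM. Hepatocyte markers summed to 416 to 732 and 466 to 717 CPM (7 of 14 fell), Kupffer cell markers to 359.7 to 646 and 193 to 507 CPM (4 of 9 fell) and B cell markers to 73.6 to 126 and 40.5 to 74.6 CPM (2 of 6 fell). Hp was the largest part of the hepatocyte sum, at 262 to 394 CPM in controls and 338 to 554 CPM in deficient animals. Alb went the other way without overlap, from 69.4 to 204 CPM in controls to 39.1 to 61.4 CPM in deficient animals. Dendritic cell markers stood at 91.7 to 159 and 88.6 to 216 CPM (1 rose and 4 fell of 9), and T and NK cell markers at 13.1 to 50.4 and 23.7 to 95.6 CPM (1 rose and 1 fell of 7). Endothelial and stellate cell markers stood at 38.2 to 153 and 31.6 to 205 CPM (1 of 7 fell), and erythroid and platelet markers at 35.2 to 79.1 and 37.5 to 215 CPM (1 of 6 rose). The monocyte list itself, which includes Lyz2, the gene that carries the Cre, summed to 19034 to 26648 and 11491 to 16894 CPM (2 rose and 3 fell of 10). Lyz2 itself stood at 8859 to 16323 CPM in controls and at 7325, 5591, 2844 and 315 CPM in deficient replicates 5, 6, 12 and 13. The other 9 genes, summed after these values were seen, gave 9235 to 10324 CPM in controls and 9212 to 12277 CPM in deficient animals, which overlapped, with replicates 12 and 13 highest. Chil3 weighed on that rank, at 5949 and 4237 CPM in replicates 12 and 13 against 2061 to 3177 CPM in controls. Itgam and Cd14 were also highest in these replicates, while Ccr2, Csf1r and Plac8 were lowest there. The part of any marker list in the enzyme differences was not tested. In RNA from pooled sorted cells, more message per cell cannot be told apart from more cells with a high level.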

How the data were processed

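The authors deposited raw counts per gene, 1 column per animal, beside a normalised signal that the authors made, by its values, by dividing each count by 1 factor per library; the signal was used only to compare those factors with DESeq2 size factors. Named in the submitters' processing notes, without roles, are the build GRCm38 and the tools STAR 2.7.3a, DESeq2 1.26.0, cutadapt and HTSeq 0.12.4; strandedness is not given in the sources used here. Libraries were single-read polyA libraries from 500 ng of RNA, per the labels' protocols. The highest count of a row was never under 6.

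The counts were fitted with edgeR 4.0.16 under R 4.3.3: filterByExpr (minimum count 10, minimum total 15) kept 12178 genes, with TMM scaling and the two-sided quasi-likelihood test with genotype and label set, Benjamini-Hochberg over all tested genes. CPM divides by the total over all gene rows, without the cre row, times the TMM factor, and log2 CPM adds a prior count of 2. A count of 0 allows up to 3 counts, which covers counting error only. Replicate libraries differed by more than sampling noise (chi-square per degree of freedom at least 7.68). Lengths, positions and windows came from GENCODE M21. The code was tested on simulated data. All 10 members are named; of other lists the 4 tested genes with the smallest p, Gapdh, and the 8 genes most like the members. The members, gene lists and model were chosen with earlier results of these data known, including that the test without the label set calls 0 genes. Set differences within a genotype, promoter motifs, isozyme shares and principal transcript lengths were added after seeing the data. Alternatives were other scalings, filters, DESeq2 1.42.0, limma 3.58.1 voom, models without the label set, each label set alone, and leaving out each animal. The values of 1 isozyme gene are not reported here.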

Additional observations from a re-analysis of the deposited data

Results flagged for a closer look

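Hk2 was the enzyme whose genotype difference went opposite ways in the label sets: both deficient animals of the lower-numbered set (98.7 and 90.9 CPM) lay under both controls (106 and 107 CPM), and both of the higher-numbered set (172 and 147 CPM) lay above both controls (101 and 110.3 CPM). The log2 fold changes differed by 0.76 (higher- minus lower-numbered set, SE 0.14), with an adjusted p of 0.190 over all genes (edgeR quasi-likelihood interaction test), so the difference did not pass. Each set held 2 animals of each genotype.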

How the results depend on the processing

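No paired analysis was possible because controls and deficient animals have no number in common. Without the label set 0 enzymes were called, and 0 other glycolysis genes in either direction, by edgeR, DESeq2 or limma voom; over all genes edgeR and voom called 0 and DESeq2 called 79 higher and 79 lower, against 802 and 895 with it. With the lower-numbered set alone 0 enzymes and 0 other glycolysis genes were called, 31 genes in all were higher and 15 lower, and Hk2 turned to -0.17; with the higher-numbered set alone these totals were 280 and 366, and 0 other glycolysis genes were called lower. Leaving out 1 animal gave 8 to 9 enzymes higher and 0 lower, 1 to 3 other glycolysis genes higher and 0 to 1 lower, and 323 to 824 genes higher and 374 to 861 lower, the lowest without deficient replicate 12. One other glycolysis gene was called lower with the filter of at least 5 CPM in 4 libraries and with DESeq2 (label set in the model). With the label set, all other scalings, filters and tools tried gave 9 enzymes called. Upper-quartile scaling gave 641 genes higher and 1035 lower. Totals of 13327665 to 15759224 counts limit mainly the low isozymes, such as Pfkm and Eno2.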
